A study of Homo sapiens with 15 samples.

Results

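The cluster from miR-532 to miR-502 is a group of microRNA (miRNA) hairpins on the X chromosome, and 10 of its mature miRNAs were followed here, out of 1707 mature miRNAs counted in the study. The members are hsa-miR-532-5p, hsa-miR-532-3p, hsa-miR-188-5p, hsa-miR-500a-3p, hsa-miR-362-5p, hsa-miR-362-3p, hsa-miR-501-5p, hsa-miR-501-3p, hsa-miR-660-5p and hsa-miR-502-3p, named below without the species prefix. They were chosen by their fold changes, because the cluster was higher in HIF1α-KO and HIF1α/HIF2α-KO cells than in hypoxic control cells, so their levels in those comparisons are a description, without a p-value for any member, and counts of calls there are recorded beside the count over all miRNAs and support nothing. Another 6 mature miRNAs of the same hairpins were not among the members and are given beside them.

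The cells were U87-MG, a long-established line from a human glioblastoma, and small RNAs were sequenced by miRNA-Seq. Control cells in 21% O2, control cells in 1% O2, and cells in 1% O2 that lacked HIF1α (HIF1α-KO), HIF2α (HIF2α-KO) or both (HIF1α/HIF2α-KO) formed 5 groups of 3 replicates, all kept in their condition for 24 h. The knockouts were made with CRISPR/Cas9 from a lentiviral vector and 1 guide for each gene, HIF1A or EPAS1. The sources used here describe no selection of single clones for the sequenced cells and do not say whether the control cells carried the vector, and nothing states that the replicates were separate cultures, so that p-values measure only the spread between these libraries, which may be technical.

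A miRNA is cut from a hairpin in a longer transcript, and either side of the hairpin, the 5p arm or the 3p arm, can be loaded into an Argonaute protein. The loaded strand finds its target mRNAs mainly through the seed, a short stretch near its 5′ end, and target mRNAs are then repressed. Hairpins that lie close together on the same strand are often cut from a shared transcript, and those inside an intron can be made from the host gene's transcript. The host here is CLCN5, which encodes a chloride/proton exchanger that is altered in Dent disease, a kidney tubule disorder. HIF1α and HIF2α are transcription factors that accumulate when oxygen is low and bind a short DNA motif near the genes they activate.

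In GENCODE 29 on GRCh38, the 8 hairpins lie on the plus strand of chromosome X at chrX:50003148-50014683, a stretch of 11536 bp. Their order along the transcript is MIR532, MIR188, MIR500A, MIR362, MIR501, MIR500B, MIR660 and MIR502. All lie within a CLCN5 intron of 117001 bp at chrX:49925315-50042315, between exons 3 and 4 of the CLCN5 transcripts with 15 exons. Of the 9 annotated CLCN5 transcripts, 3 span the cluster. Mature sequences from RefSeq (GRCh38.p14) matched 9 of the 10 members. They are shown because members with near-identical sequences may not have been counted independently, with the seed (bases 2 to 8) in capitals.
miR-532-5p: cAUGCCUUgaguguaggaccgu
miR-532-3p: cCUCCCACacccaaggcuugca
miR-188-5p: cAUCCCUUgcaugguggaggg
miR-500a-3p: aUGCACCUgggcaaggauucug
miR-362-5p: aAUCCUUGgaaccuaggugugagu
miR-362-3p: aACACACCuauucaaggauuca
miR-501-5p: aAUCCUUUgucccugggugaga
miR-501-3p: aAUGCACCcgggcaaggauucu
miR-502-3p: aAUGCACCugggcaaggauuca
The 9 sequences were 21 to 24 bases long and held 8 different seeds. Only miR-501-3p and miR-502-3p had the same seed, AUGCACC. The seed of miR-362-5p, AUCCUUG, was also that of miR-500b-5p, and the seed of miR-362-3p, ACACACC, was also that of miR-329-3p, which lies outside these hairpins. The remaining members except miR-188-5p, whose seed was also that of miR-6866-3p, shared their seed with no other miRNA in the RefSeq table.

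The levels of the members differed widely although the hairpins are neighbours. Levels are given as CPM, the count relative to the library total after that total was corrected for differences in composition with TMM factors. MiR-532-5p had a mean of 495 CPM over the 15 libraries, ranked 63 of the 562 miRNAs tested, and made up 52.0% of the summed level of the 10 members. MiR-500a-3p and miR-502-3p followed with 157 and 153 CPM, miR-660-5p with 62.0 CPM, miR-501-3p with 38.0 CPM, miR-362-5p with 24.0 CPM and miR-532-3p with 16.5 CPM. The lowest were miR-501-5p with 3.57 CPM, miR-188-5p with 1.45 CPM and miR-362-3p with 0.85 CPM. MIR188, which starts only 355 bp after MIR532, gave the lowest levels of the 8 hairpins. All mature miRNAs have nearly the same length, but the ligation and amplification of small RNAs differ by sequence, so that the order of levels between miRNAs is that of the reads and not necessarily that of the molecules in the cell.

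The more abundant arm changed along the cluster. Over all libraries, the 5p arm held 96.8% of the counts of MIR532, 95.7% of MIR188, 96.7% of MIR362, 99.2% of MIR660 and 75.6% of MIR500B. The 3p arm held 95.7% of MIR500A, 91.2% of MIR501 and 99.4% of MIR502. By these counts, the members include the more abundant arm of every hairpin except MIR500B, and the less abundant arm of MIR532, MIR362 and MIR501. The shares of MIR500A, MIR500B and MIR502 are uncertain, because each rests on counts that nearly coincide with those of another of these hairpins. For MIR500B this concerns the 5p counts, so that its more abundant arm is not settled.

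The counts of miR-500a-3p and miR-502-3p nearly coincided and are not treated as independent measurements. Both sequences hold the same run of 20 bases, augcaccugggcaaggauuc, and in each of the 15 libraries the count of miR-500a-3p exceeded that of miR-502-3p by only 1.59% to 3.23%, or 27 to 102 counts. Among the 405 miRNAs with at least 10 counts in every library, 81810 pairs were compared, and 8 stayed within 5% in all libraries. Some of the 8 were opposite arms of the same hairpin, miR-625-3p with miR-625-5p and miR-549a-3p with miR-549a-5p. Another was miR-500a-5p with miR-500b-5p. That pair, neither of them a member, had identical counts in 14 of 15 libraries and differed by 1 count in the last.
miR-500a-5p: uAAUCCUUgcuaccugggugaga
miR-500b-5p: aAUCCUUGcuaccugggu
The run of 18 bases aauccuugcuaccugggu, which is the whole of miR-500b-5p, lies within miR-500a-5p. The values of these miRNAs are uncertain as to which hairpin they come from, and the 10 members are treated as about 9 separate measurements. Whether the same reads were counted under both names is not known. If they were, the summed levels below include them under both.

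Total counts ranged from 10360337 to 22496373 per library, and the members held 0.0699% to 0.132% of them. A count of 3, taken as the smallest detectable amount, was at most 0.290 CPM, which covers counting error only. No mRNA was measured, so neither the knockouts of HIF1A and EPAS1 nor the host gene CLCN5 could be checked. MiR-21-5p, miR-221-3p and miR-222-3p, abundant in glioblastoma lines, summed to 200490 to 284804 CPM. Markers of other cells were far lower, with ranges of 3.90 to 51.9 CPM for 2 endothelial miRNAs, 4.33 to 23.1 CPM for 4 blood miRNAs, 1.60 to 47.2 CPM for 3 muscle miRNAs, 33.8 to 79.9 CPM for 3 epithelial miRNAs and 0 to 0.579 CPM for the neuronal miR-124-3p. MiR-126-5p, miR-223-3p, miR-206 and miR-124-3p were at 0 in at least some libraries. The endothelial miR-126 split the libraries into 6 with 3.90 to 6.95 CPM, namely control replicates 2 and 3 in 1% O2, HIF1α-KO replicates 1 and 2, HIF2α-KO replicate 2 and HIF1α/HIF2α-KO replicate 3, and 9 with 14.5 to 51.9 CPM. The summed level of the members had a median of 1069 CPM (757.5 to 1171) in the first set and 884.6 CPM (778.9 to 1232) in the second.

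The summed level of the cluster had its highest mean in HIF1α-KO cells, 1123 ± 94.1 CPM against 854.3 ± 87.7 CPM in hypoxic control cells (SD, n = 3 each). The 10 members summed to 884.6, 880.7 and 808.8 CPM in control cells in 21% O2 and to 928.6, 757.5 and 876.8 CPM in control cells in 1% O2. The sums were 1071, 1066 and 1232 CPM in HIF1α-KO cells, 816.1, 1171 and 778.9 CPM in HIF2α-KO cells, and 927.2, 973.9 and 1107 CPM in HIF1α/HIF2α-KO cells. All HIF1α-KO libraries thus lay above all control libraries, the HIF1α/HIF2α-KO libraries overlapped the hypoxic controls at 1 library by a narrow margin, and HIF2α-KO replicate 2 stood apart from the other two HIF2α-KO libraries. In bulk libraries, a higher level in each cell cannot be told apart from a larger share of cells with the miRNA.

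Across the 5 groups, the mean of a member was lowest in hypoxic control cells for 5 members, in normoxic control cells for 3 and in HIF2α-KO cells for 2. The mean was highest in HIF1α-KO cells for 5 members (miR-532-5p, miR-532-3p, miR-500a-3p, miR-501-3p and miR-502-3p), in HIF1α/HIF2α-KO cells for 4 (miR-362-5p, miR-362-3p, miR-660-5p and miR-501-5p) and in normoxic control cells for miR-188-5p. When the groups of each member were put in order of their means, the libraries of neighbouring groups overlapped in all 40 steps, so that neighbours in the order do not differ beyond their spread.

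The comparison of HIF1α-KO with hypoxic control cells was 1 of the 2 that chose the members. All 10 members had log2 fold changes above 0, from 0.21 to 0.56, with a median of 0.38, beside 44.1% of the 562 miRNAs tested above 0 and a median of -0.05 over all of them. MiR-532-5p, the most abundant member, was at 465.0, 418.2 and 493.8 CPM in hypoxic control cells and at 571.4, 602.3 and 622.4 CPM in HIF1α-KO cells, a log2 fold change of 0.38 ± 0.15 (SE, n = 3 in each group), or 1.3-fold. The lowest HIF1α-KO library was above the highest control library. MiR-660-5p, from the MIR660 hairpin, was at 53.1, 41.1 and 52.3 CPM in hypoxic control cells and at 70.8, 63.2 and 79.7 CPM in HIF1α-KO cells, a log2 fold change of 0.55 ± 0.20. MiR-362-5p, the main arm of MIR362, was at 17.1, 18.2 and 22.2 CPM in control cells and at 25.1, 28.7 and 31.2 CPM in HIF1α-KO cells, with the highest log2 fold change of the members here, 0.56 ± 0.21. MiR-501-5p, the minor arm of MIR501, was at 3.13, 2.68 and 2.91 CPM and at 4.24, 3.71 and 4.40 CPM, a log2 fold change of 0.50 ± 0.21. For these 4 members the groups did not overlap, beside 10.1% of all miRNAs tested with HIF1α-KO libraries entirely above the controls.

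For the other 6 members the libraries of both groups overlapped. MiR-500a-3p and miR-502-3p, with nearly coinciding counts, had log2 fold changes of 0.38 ± 0.18 each. Hypoxic control replicate 1, at 169.4 CPM of miR-500a-3p, was within the range of the HIF1α-KO libraries, 159.3 to 211.6 CPM. MiR-501-3p was at 0.39 ± 0.20, miR-532-3p at 0.28 ± 0.23, miR-362-3p at 0.48 ± 0.50 and miR-188-5p at 0.21 ± 0.30. As a record of the fits, none of the 10 members passed an adjusted p of 0.05 in edgeR (quasi-likelihood test), limma or DESeq2. Of all miRNAs, edgeR called 7 in either direction and 0% higher, limma called 6 in either direction and DESeq2 12. Nothing is read from these counts because the same values chose the members. Leaving out any single library moved the median of the members between 0.34 and 0.53. Within the libraries with more miR-126 (1 of each group) the median was 0.45, and within those with less (2 of each group) it was 0.41. These medians, like those with a library left out, support nothing, since the comparison chose the members.

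HIF1α/HIF2α-KO cells, the second comparison that chose the members, also had all 10 members above hypoxic control cells, with log2 fold changes from 0.14 to 1.63 and a median of 0.36, beside 48.2% above 0 and a median of -0.02 over all miRNAs tested. The order of the members was not that of the HIF1α knockout. MiR-532-5p was at 474.8, 456.0 and 583.7 CPM in HIF1α/HIF2α-KO cells and overlapped the controls, with the smallest log2 fold change of the members, 0.14 ± 0.15. MiR-362-3p, the minor arm of MIR362, had the largest, 1.63 ± 0.47, on counts of 5, 9 and 9 in control cells and 16, 19 and 27 in HIF1α/HIF2α-KO cells. These are few counts, so that the size of the difference is poorly determined (95% confidence interval 0.62 to 2.63).

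The other members lay between these values. MiR-660-5p was at 66.5, 74.0 and 86.5 CPM in HIF1α/HIF2α-KO cells, with a log2 fold change of 0.63 ± 0.20. MiR-362-5p was at 25.2, 29.2 and 31.4 CPM, with 0.58 ± 0.21, and miR-501-5p at 5.10, 5.0 and 3.93 CPM, with 0.69 ± 0.21. All of these libraries were above all hypoxic controls. MiR-188-5p was at 1.51, 2.12 and 1.64 CPM against 0.829, 1.47 and 1.46 CPM in the controls, with 0.45 ± 0.30. MiR-500a-3p, miR-502-3p, miR-532-3p and miR-501-3p had log2 fold changes of 0.24 to 0.27, and their groups overlapped.

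The groups did not overlap for 5 of 10 members, beside 13.7% of all miRNAs tested, and again nothing is read from this, since the comparison chose the members. As a record of the fits, 0 members passed an adjusted p of 0.05 in edgeR, beside 1.25% of all miRNAs called higher and 33 called in either direction. Among the 60 miRNAs that DESeq2 called in either direction 2 were members, and among the 38 that limma called 1 was. The median without any single library was between 0.30 and 0.50, and it was 0.24 within the libraries with more miR-126 and 0.48 within those with less.

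In HIF2α-KO cells against hypoxic control cells, the members divided. This comparison shares its control libraries with those that chose the members and is given as a description. The median log2 fold change was 0.18, with 8 of 10 members above 0, beside 48.6% above 0 and a median of -0.01 over all miRNAs tested, and for 0 members were the groups without overlap, beside 16.4% of all miRNAs in either direction. MiR-532-5p was at 414.4, 579.9 and 380.1 CPM in HIF2α-KO cells, a log2 fold change of -0.00 ± 0.15. MiR-660-5p was at 52.8, 89.5 and 59.4 CPM, with 0.46 ± 0.20. The highest value of both was in replicate 2, one of the 6 libraries with less miR-126 and the only such library of its group.

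MiR-362-3p and miR-188-5p, the members with the fewest counts, lay at opposite ends in HIF2α-KO cells. MiR-362-3p had 8, 16 and 16 counts, or 0.626, 1.52 and 1.52 CPM, against 0.461, 0.389 and 0.655 CPM in hypoxic control cells, with a log2 fold change of 1.28 ± 0.49. MiR-188-5p had 13, 8 and 6 counts, or 1.02, 0.761 and 0.570 CPM, the lowest mean of the 5 groups, with -0.69 ± 0.33. Without HIF2α-KO replicate 2 the median of the members was -0.02. It was -0.08 within the libraries with more miR-126 and 0.68 between the single HIF2α-KO library and the 2 control libraries with less.

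Hypoxic and normoxic control cells were also compared, again as a description because the hypoxic controls were used in choosing the members. The median log2 fold change of hypoxic against normoxic control cells was -0.03, beside 0.01 over all miRNAs tested, and 3 of 10 members were above 0, beside 50.7%. MiR-532-5p was at 464.1, 466.9 and 434.2 CPM in normoxia, with 0.01 ± 0.15. The largest differences were in the members with few counts, miR-188-5p at -0.61 ± 0.30 (2.44, 1.39 and 2.06 CPM in normoxia) and miR-362-3p at 0.53 ± 0.56 on 2, 3 and 9 counts in normoxia. For all 10 members the groups overlapped, beside 17.8% of all miRNAs without overlap in either direction. Leaving out normoxic replicate 3 moved miR-362-3p to 1.28.

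**Figure D1:**
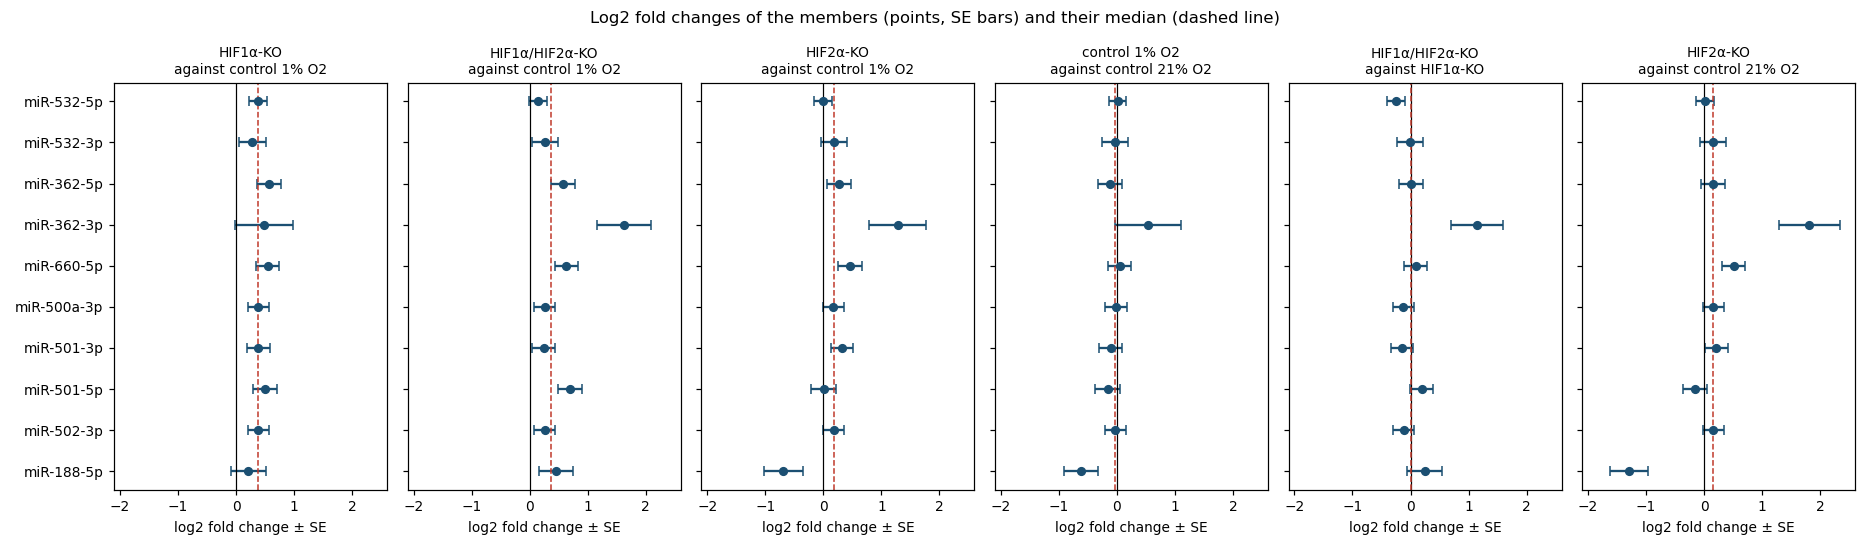
Log2 fold change (point) with its SE (bar) of each member in the 6 comparisons, from the edgeR fit of all 15 libraries, and the median of the members (dashed line). The medians are 0.38 and 0.36 for HIF1α-KO and HIF1α/HIF2α-KO cells against hypoxic control cells, which chose the members. MiR-362-3p lies at 1.15 to 1.81 where HIF2α-KO or HIF1α/HIF2α-KO cells are compared with cells that have HIF2α. It had only 2 to 27 counts per library, and these comparisons share groups.

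The difference between HIF1α/HIF2α-KO and HIF1α-KO cells, which asks what the loss of HIF2α adds when HIF1α is absent, was not itself used in choosing the members and was tested. The libraries of both groups did enter the choice, through their high values against the hypoxic controls. No member passed the threshold in either direction in edgeR, DESeq2 or limma, beside 0% of all miRNAs called higher and 1.42% called lower by edgeR. In either direction, DESeq2 called 25 miRNAs and limma 16. The median log2 fold change of the members was 0.00, with 5 of 10 above 0, beside 52% above 0 and a median of 0.02 over all miRNAs tested. MiR-532-5p was lower by a log2 fold change of -0.25 ± 0.15 (95% confidence interval -0.57 to 0.08, edgeR adjusted p = 0.505). MiR-660-5p was at 0.09 ± 0.20 (95% confidence interval -0.34 to 0.52, edgeR adjusted p = 0.877), and miR-362-5p at 0.01 ± 0.21 (-0.43 to 0.46). MiR-501-5p was at 0.19 ± 0.20 (-0.24 to 0.62). Apart from those of miR-362-3p and miR-188-5p, the intervals ran from -0.57 to 0.62 at their widest. The members were chosen for high values in both groups, so that no bound on the effect of HIF2α loss is taken from them.

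MiR-362-3p was the only member with an unadjusted p under 0.05 in this comparison, higher in HIF1α/HIF2α-KO cells, beside 6.23% of all miRNAs higher and 8.72% lower at that level. It was at 0.733, 0.831 and 0.449 CPM in HIF1α-KO cells and at 1.01, 1.44 and 2.21 CPM in HIF1α/HIF2α-KO cells, without overlap, beside 10.5% of all miRNAs with the latter entirely higher. Its log2 fold change was 1.15 ± 0.45 (95% confidence interval 0.18 to 2.12), and the edgeR adjusted p was 0.256.

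HIF2α-KO cells in 1% O2 were also compared with control cells in 21% O2, since neither group entered the choice of the members. Both the genotype and the oxygen level differ here and cannot be told apart. By edgeR, DESeq2 and limma 0 members passed the threshold, and each of these called 0 of all miRNAs in either direction. The median log2 fold change was 0.15, with 8 of 10 members above 0, beside 49.6% above 0 and a median of -0.00 over all miRNAs tested. At an unadjusted p under 0.05, miR-362-3p and miR-660-5p were higher, beside 8.36% of all miRNAs, and miR-188-5p was lower, beside 6.76%.

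MiR-362-3p had a log2 fold change of 1.81 ± 0.52 (95% confidence interval 0.69 to 2.93, edgeR adjusted p = 0.214). That value rests on 2, 3 and 9 counts in normoxic control cells, near the count of 3 taken as the smallest detectable amount. MiR-660-5p had 0.51 ± 0.20 (0.08 to 0.94, edgeR adjusted p = 0.305). The normoxic values of miR-660-5p were 52.7, 43.5 and 45.6 CPM, and its lowest HIF2α-KO library, at 52.8 CPM, was just above the highest of them. MiR-188-5p had -1.30 ± 0.33 (95% confidence interval -2.0 to -0.60, edgeR adjusted p = 0.214). Groups without overlap were found for these 3 members, 2 of them higher, beside 9.43% of all miRNAs, and 1 lower, beside 9.07%. The result depended on single libraries. Without HIF2α-KO replicate 1, miR-362-3p (2.12, edgeR adjusted p = 0.0413) and miR-188-5p (-1.57, edgeR adjusted p = 0.0437) passed the threshold among 18 miRNAs called in all, against 0 with every library, and without HIF2α-KO replicate 2 the median of the members was -0.07. MiR-532-5p was at 0.01 ± 0.15 (-0.32 to 0.34).

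Of the other mature miRNAs of the same hairpins, the 4 that passed the filter on low counts lay above 0 in both comparisons that chose the members. This stands beside 44.1% (HIF1α-KO) and 48.2% (HIF1α/HIF2α-KO) of all miRNAs tested above 0. MiR-502-5p, the minor arm of MIR502, was at 0.461, 0.475 and 0.801 CPM in hypoxic control cells, at 1.14, 1.32 and 1.08 CPM in HIF1α-KO cells and at 1.26, 1.14 and 1.48 CPM in HIF1α/HIF2α-KO cells, with log2 fold changes of 1.04 ± 0.43 and 1.15 ± 0.43 on 4 to 27 counts per library. MiR-500a-5p was at 4.88, 4.88 and 5.31 CPM in hypoxic control cells, at 8.07, 5.86 and 7.01 CPM in HIF1α-KO cells and at 8.63, 6.89 and 12.3 CPM in HIF1α/HIF2α-KO cells, with 0.47 ± 0.26 and 0.88 ± 0.26. MiR-500b-5p has the same counts and is no separate observation. MiR-500b-3p had 0.38 ± 0.24 and 0.49 ± 0.24. MiR-188-3p, with 0 to 6 counts per library, and miR-660-3p, with 1 to 14 counts, did not pass the filter. The means of miR-660-3p went the other way, with 0.532 CPM in hypoxic control cells, 0.511 CPM in HIF1α-KO cells and 0.481 CPM in HIF1α/HIF2α-KO cells.

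The use of the arms within a hairpin does not depend on the scaling of the libraries. The log2 ratio of 5p to 3p counts was compared between the hypoxic libraries without HIF1α (HIF1α-KO and HIF1α/HIF2α-KO) and with it (control and HIF2α-KO), by a two-sided exact permutation test within each HIF2α state. The ratio itself had no part in choosing the members. The counts of member arms in the HIF1α-KO, HIF1α/HIF2α-KO and hypoxic control libraries did, so that the p-values are not independent of that choice. The test was made for the 4 hairpins with at least 10 counts of both arms in every library, and its smallest possible p is 0.005. For MIR501, HIF1α-KO cells had a ratio of -3.36 ± 0.21 and HIF1α/HIF2α-KO cells one of -3.05 ± 0.20, against -3.48 ± 0.13 in control cells and -3.80 ± 0.32 in HIF2α-KO cells (SD, n = 3 each). The 5p arm was thus relatively more frequent without HIF1α by 0.44, which did not pass after adjustment over the 4 hairpins (exact permutation p = 0.02, adjusted p = 0.08). The difference was 0.12 between HIF1α-KO and control cells and 0.75 between HIF1α/HIF2α-KO and HIF2α-KO cells, so that it came mostly from the latter pair. The ratios differed by 0.17 for MIR500A (exact permutation p = 0.335, adjusted p = 0.593), by 0.09 for MIR532 (exact permutation p = 0.445, adjusted p = 0.593) and by -0.14 for MIR500B (exact permutation p = 0.615), and the sign turned without replicate 1 for MIR500A and MIR532 and without replicate 2 for MIR500B. The 5p counts of MIR500A and MIR500B, and the 3p counts of MIR500A, are among the nearly coinciding ones described above.

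MIR362 had too few 3p counts for that test, and its arms are given as shares. The hairpin (RefSeq, GRCh38.p14, chrX:50008964-50009028, plus strand) is shown with both mature arms in capitals.
MIR362: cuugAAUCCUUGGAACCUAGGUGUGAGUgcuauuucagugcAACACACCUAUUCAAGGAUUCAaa
The 3p arm, miR-362-3p, held 0.680%, 1.08% and 3.14% of the counts of the hairpin in normoxic control cells and 2.62%, 2.09% and 2.87% in hypoxic control cells. It held 2.84%, 2.81% and 1.42% in HIF1α-KO cells, 2.86%, 4.79% and 7.84% in HIF2α-KO cells, and 3.85%, 4.69% and 6.59% in HIF1α/HIF2α-KO cells. The exact (Clopper-Pearson) 95% intervals are wide, from 4.55% to 12.4% for the highest library and from 0.0825% to 2.44% for the lowest, and cover counting error only. The libraries of HIF1α/HIF2α-KO cells were all above those of HIF1α-KO and control cells, and HIF2α-KO replicate 1 was within the range of the control libraries. This contrast was noticed in the values and was not tested.

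The members varied together between libraries to different degrees. Over the 15 libraries, the 28 pairs among the 8 members with at least 28 counts in every library had Pearson correlations of log2 CPM from 0.24 to 1.00 with a median of 0.73, and a median of 0.68 after the group means were taken out. The highest is that of miR-500a-3p with miR-502-3p, whose counts nearly coincide. The 17 pairs with miR-362-3p or miR-188-5p had a median of 0.19. Against the mean of the other members, miR-660-5p followed most closely (r = 0.93), then miR-362-5p (0.87), and miR-188-5p did not follow (-0.08). These correlations are descriptions, since all points come from the same 15 libraries, normalized together.

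Outside the cluster, the miRNAs with a mean of at least 10 CPM whose pattern over the 15 libraries was most like the mean of the members were miR-30a-5p (r = 0.90), miR-29a-3p (0.83), miR-192-5p (0.80), miR-3117-3p (0.80) and miR-194-5p (0.78), of 239 compared. MiR-192-5p had means of 176 ± 17.1 CPM in hypoxic control cells, 262 ± 35.9 CPM in HIF1α-KO cells, 181 ± 13.4 CPM in HIF2α-KO cells and 261 ± 27.0 CPM in HIF1α/HIF2α-KO cells (SD, n = 3 each). MiR-30a-5p had 1569 ± 157 CPM, 2052 ± 167 CPM, 2170 ± 558 CPM and 2876 ± 341 CPM in the same order, with the highest mean in HIF1α/HIF2α-KO cells. The summed members were highest in HIF1α-KO cells, but miR-532-5p makes up 52.0% of that sum, whereas the correlation weighs all members equally. Of the members, 4 also had their highest mean in HIF1α/HIF2α-KO cells.

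The hairpins lie on the same strand as CLCN5. The promoter near the start of the transcripts that span the hairpins was searched for the core of the HIF binding motif. The RefSeq window (GRCh38.p14, chrX:49922346-49922645, plus strand, 250 bases before to 50 after the start) is shown with matches to ACGTG or GCGTG on either strand in capitals.
CLCN5 promoter: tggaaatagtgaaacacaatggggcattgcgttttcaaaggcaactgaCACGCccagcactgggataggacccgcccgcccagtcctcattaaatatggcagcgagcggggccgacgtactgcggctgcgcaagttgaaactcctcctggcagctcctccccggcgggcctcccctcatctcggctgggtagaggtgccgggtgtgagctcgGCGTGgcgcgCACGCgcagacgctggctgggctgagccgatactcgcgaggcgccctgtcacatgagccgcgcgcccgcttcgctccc
The window holds GCGTG 3 times, counting both strands, and ACGTG 0 times. Of all 35116 RefSeq promoter windows of this length, 36.5% hold GCGTG, 21.4% hold ACGTG, 48.4% hold at least one of the 2, and 4.30% hold GCGTG at least 3 times. The last share is for the core found in this window, and none is given for 3 matches of either core. A match describes the letters and is no measured binding site, and these libraries do not show from which start the hairpins are transcribed.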

How the data were processed

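MiRNA-Seq libraries of U87-MG cells (5 groups of 3) were assigned to groups from their labels, which give genotype, oxygen level and a replicate number. The authors deposited raw read counts per mature miRNA, as whole numbers without normalization. HISAT2, StringTie and DESeq2 are named in the submitters' processing notes, with no role. The genome build, and how reads that match several miRNAs were counted, are not given in the sources used here. The members, lists and tests were chosen with earlier results of these data known.

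The counts were fitted in R 4.3.3 with edgeR 4.0.16 (TMM factors, filterByExpr, which kept 562 miRNAs with over 99.9% of the counts, 1 mean per group, quasi-likelihood test, Benjamini-Hochberg adjustment over all 562, threshold 0.05). The miRNAs named are the 10 members, the 6 other mature miRNAs of the hairpins, and the 5 outside them, of at least 10 CPM, most correlated with the members' mean. Arm ratios were tested with exact permutation tests. Replicates were checked to be no copies of one another (smallest chi-square per degree of freedom 49.3). The alternatives were DESeq2 size factors, total counts, the DESeq2 1.42.0 Wald test, limma 3.58.1 after quantile normalization of log2(CPM + 1), no filter, at least 10 counts in every library, only the libraries compared, a replicate block, the miR-126 set as a covariate, and each library left out. On simulated data with 200 miRNAs changed by 2 on the log2 scale, the fits were checked for recovery and direction. That change is larger than those of most members, so that recovery of changes of their size was not checked.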

Additional observations from a re-analysis of the deposited data

How the results depend on the processing

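Under the alternatives run, the medians of the members against hypoxic control cells were 0.34 to 0.53 in HIF1α-KO and 0.24 to 0.50 in HIF1α/HIF2α-KO cells. Both comparisons chose the members, so that medians above 0 there support nothing. For hypoxic against normoxic control cells the medians were -0.19 to 0.14. For HIF1α/HIF2α-KO against hypoxic control cells, a comparison that chose the members, 0 of them passed the threshold in the edgeR fit reported, of 33 miRNAs called in all. The number was 3 of 50 called with total counts (miR-362-3p, miR-501-5p, miR-660-5p), 2 of 60 with DESeq2 and 2 of 61 with the miR-126 set as a covariate (miR-362-3p, miR-660-5p), 1 of 38 with limma, 1 of 44 with no filter and 1 of 33 with the replicate block (miR-362-3p each), and 1 of 56 with at least 10 counts in every library, which leaves out miR-362-3p (miR-501-5p). For HIF2α-KO against normoxic control cells it was 0 to 2 with libraries left out in turn, the 2 being among 18 called in all. No other alternative changed these 2 counts. The replicate numbers were not taken as pairs, since same-numbered libraries correlated at -0.21 to 0.22 on average. Single correlations ran from -0.62 to 0.51, so that the averages do not settle whether the numbers pair libraries. The replicate block changed no other call. The cause of these changes was not tested, and the depth limits miR-362-3p, with 2 to 27 counts per library, and miR-188-5p, with 6 to 34.

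Alternatives chosen after seeing the data were the medians with miR-500a-3p and miR-502-3p counted once, without miR-362-3p and miR-188-5p, and within the libraries with more or less miR-126. The last moved the median to -0.0829 (more) and 0.678 (less) for HIF2α-KO against hypoxic control cells, to -0.285 (more) for HIF1α/HIF2α-KO against HIF1α-KO cells and to -0.0560 (more) for HIF2α-KO against normoxic control cells. With single libraries left out, the first of these medians was -0.0194 to 0.339 and the last -0.0712 to 0.211. Total counts moved the median of all miRNAs in HIF2α-KO against hypoxic control cells to -0.15 and that of the members to 0.04. Limma lowered the log2 fold change of miR-362-3p to 0.809 in HIF1α/HIF2α-KO and to 0.620 in HIF2α-KO against hypoxic control cells. In the latter comparison it moved miR-188-5p to -0.279.

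Members near 0 changed sign. For HIF1α/HIF2α-KO against HIF1α-KO cells, limma gave -0.123 for miR-362-5p, -0.0975 for miR-660-5p and -0.0187 for miR-501-5p, miR-362-5p was at -0.00204 with no filter and -0.00772 with at least 10 counts, and miR-532-3p was at 0.00719 with only the libraries compared. With libraries left out, the values were -0.162 to 0.125 for miR-532-3p, -0.0863 to 0.0769 for miR-362-5p, -0.0253 to 0.149 for miR-660-5p and -0.242 to 0.00902 for miR-501-3p. For HIF2α-KO against normoxic control cells, miR-532-5p was at -0.0822 with total counts, -0.0557 with limma, -0.0142 with no filter, -0.00944 with at least 10 counts, -0.0351 with only the libraries compared and -0.0675 with the miR-126 covariate. With libraries left out, the values were -0.209 to 0.0740 for miR-532-5p, -0.0668 to 0.215 for miR-532-3p, -0.111 to 0.266 for miR-362-5p, -0.0727 to 0.239 for miR-500a-3p, -0.0697 to 0.236 for miR-502-3p and -0.348 to 0.0244 for miR-501-5p.

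The arm ratio of MIR501 differed by 0.120 in HIF1α-KO against hypoxic control cells and by 0.752 in HIF1α/HIF2α-KO against HIF2α-KO cells, and that of MIR500B by 0.0854 in the former. Leaving out a replicate number gave -0.0428 to 0.207 for MIR532, -0.0295 to 0.382 for MIR500A and -0.292 to 0.140 for MIR500B.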
